A study of Mus musculus and Rattus norvegicus with 14 samples.

Results

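Transcripts of the Wnt signalling system were followed in mouse hearts and in cultured rat heart cells. The genes were the protein-coding genes whose symbols begin with Wnt, Fzd, Sfrp, Dkk or Rspo followed by a digit, together with Frzb, Wif1, Lrp5, Lrp6, Axin2, Ctnnb1, Tcf7, Tcf7l1, Tcf7l2 and Lef1. The rule goes by gene symbols and type alone, and it was set with earlier results of these data known. The mouse table held 51 such genes of 54532 genes (22046 protein coding), and the rat table held 50 of 33600 (22250 protein coding). Of the 51 mouse genes, 26 reached at least 1 FPKM (reads corrected for gene length and library size) in at least 3 of the 12 libraries and were tested, and 25 stayed below this filter. Of the tested genes, 3 (Axin2, Sfrp4 and Wnt4) were below 1 FPKM in every Sham library and passed through the other groups alone.

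The mouse libraries came from whole heart tissue with 3 libraries for each of 4 labels: Sham (the control), Model, SQ-3 and LQ-40. The last 2 labels are coded compounds that the study set side by side for their effect on myocardial fibrosis, with their similar structure in view. The sources used here do not give strain, age, the model procedure, dose or treatment time, and do not say whether compound-treated hearts received the model procedure as well. Whether the 3 libraries of a label stem from 3 animals is not stated either, so the p-values describe the spread among these libraries, part or all of which may be technical. In the rat, primary cardiomyocytes, cardiac fibroblasts and macrophages derived from bone marrow were sequenced as 2D cells of the 3 types mixed 1:1:1 (1 library) or as a 3D co-culture (1 library) that the study's design text ties to oxygen and glucose deprivation. Culture form and deprivation cannot be told apart between these 2 libraries.

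Depth ran from 13085370 to 16698987 gene-assigned reads per mouse library. LQ-40 library 1 stood apart from its group: on the first principal component of all tested genes (53.4% of the variance) it lay at -20.6, between the Sham libraries (-52.5 to -43.7) and the other LQ-40 libraries (16 and 34.3). Markers of cell types moved with the groups: all 8 fibroblast markers and 7 of 8 macrophage markers rose in Model hearts, and all 8 cardiomyocyte markers fell. Over all 13000 tested genes, 20.9% were called higher and 18% lower in Model hearts (limma adjusted p under 0.05). The summed level of 8 fibroblast markers was 471 to 618 scaled FPKM in Sham and 3317 to 3637 in Model hearts, and that of 8 cardiomyocyte markers was 9796 to 10558 in Sham and 3967 to 4834 in Model hearts. Macrophage markers summed to 370 to 556 in Sham and 801 to 1159 in Model hearts. The sums of epicardial, lymphocyte, Schwann cell, and cartilage and tendon markers were also higher in every Model than in every Sham library. Those of endothelial, smooth muscle and skeletal muscle markers overlapped, but single markers in these lists moved in both directions. Vwf (6.19 to 6.75 scaled FPKM in Sham, 15.1 to 16.6 in Model), Pdgfrb and Cspg4 were called higher in Model hearts. Acta2, Tagln, Tnnt3 and Myh1 were also higher in every Model than in every Sham library. Kdr, Tie1, Rgs5, Abcc9 and Ckm were lower in every Model library, but no marker of these lists was called lower. The atrial sum was higher, but it was nearly all Nppa (201 to 342 scaled FPKM in Sham, 1168 to 2907 in Model). Myl4 was higher too, at or below 1.17, while Sln, Myl7 and Stard10 overlapped. The adipocyte sum was lower, but it was nearly all Fabp4 (136 to 195 in Sham, 58.8 to 93.1 in Model). The other adipocyte markers overlapped. Mitochondrial genes held 14.6 to 23.6% of the reads in Sham and 10.8 to 15.3% in Model libraries. In whole tissue, fewer cells of a type and less RNA per cell cannot be told apart. The part of these shifts in the results below was not tested.

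Wnt proteins are secreted lipid-modified ligands that bind Frizzled receptors and, in the canonical branch, the co-receptors Lrp5 and Lrp6. Receptor engagement stabilises beta-catenin, the product of Ctnnb1, which enters the nucleus and acts with TCF and LEF factors, whereas other branches act on cell polarity and calcium. Secreted Frizzled-related proteins, the Wif1 product and Dickkopf proteins restrain the pathway outside the cell, R-spondins raise the amount of receptor at the surface, and in the heart the pathway is known for its quiescence in the healthy adult and for its activity after injury.

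Promoter sequences are shown for 4 genes that rose in Model hearts and whose RefSeq start lies at the start of the gene in the deposited table (Sfrp2, Rspo1 and Wnt11) or within 2 bases of it (Wnt9a). Each window holds the 250 bases before the RefSeq start in GRCm38.p6, 5′ to 3′ on the plus strand. Capitals mark the only match to CTTTGAT or CTTTGAA, the core sequence read by TCF and LEF factors with its flank, searched on both strands. The 2 words cannot overlap each other on one strand, because each holds C at its first base alone and they differ in the last base.
Sfrp2 (chr3:83766071-83766320): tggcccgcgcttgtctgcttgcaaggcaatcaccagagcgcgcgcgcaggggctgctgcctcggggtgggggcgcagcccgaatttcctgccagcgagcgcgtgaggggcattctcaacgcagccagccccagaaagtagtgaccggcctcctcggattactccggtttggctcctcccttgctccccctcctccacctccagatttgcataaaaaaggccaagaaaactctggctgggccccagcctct
Rspo1 (chr4:124986180-124986429): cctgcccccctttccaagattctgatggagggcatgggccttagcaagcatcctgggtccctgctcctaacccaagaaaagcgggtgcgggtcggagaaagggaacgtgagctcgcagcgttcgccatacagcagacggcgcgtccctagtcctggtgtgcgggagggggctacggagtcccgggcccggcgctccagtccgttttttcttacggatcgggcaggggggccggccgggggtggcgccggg
Wnt9a (chr11:59306680-59306929): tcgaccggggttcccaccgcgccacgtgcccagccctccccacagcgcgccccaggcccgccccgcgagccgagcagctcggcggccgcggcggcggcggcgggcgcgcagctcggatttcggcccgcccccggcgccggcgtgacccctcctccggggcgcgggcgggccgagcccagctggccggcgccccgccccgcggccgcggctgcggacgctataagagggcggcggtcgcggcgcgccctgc
Wnt11 (chr7:98834862-98835111): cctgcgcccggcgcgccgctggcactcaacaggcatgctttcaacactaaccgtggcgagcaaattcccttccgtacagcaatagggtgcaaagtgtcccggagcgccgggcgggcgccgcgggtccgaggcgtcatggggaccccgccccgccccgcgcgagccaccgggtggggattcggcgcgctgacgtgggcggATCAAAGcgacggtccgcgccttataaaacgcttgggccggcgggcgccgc
The match in Wnt11 is CTTTGAT on the opposite strand, 51 bases before the start. The windows were rich in G and C, with 63.6% in Sfrp2, 66.8% in Rspo1, 84.4% in Wnt9a and 70.8% in Wnt11, against a median of 52.4% over all 32851 RefSeq promoter windows. RefSeq windows were matched for 35 of the 51 genes (44 windows), and 3 of the 44 (6.82%) held the core, against 7.48% of all windows of this length. The 3 genes with a match were Dkk1, Wnt11 and Wnt5b. A match is a description of the letters and not of binding.

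The comparison of Model with Sham hearts asks what the model procedure changed. Of the 26 tested genes, 14 rose and 0 fell in Model hearts at a limma adjusted p under 0.05. Over all 13000 tested genes 38.9% passed, 20.9% higher and 18% lower in Model, so calls were common in this comparison. The share among the Wnt genes was 53.8%. The median log2 change was 0.54 over the Wnt genes and 0.03 over all tested genes. Model and Sham libraries did not overlap in 17 of the 26 genes, against 55.5% of all tested genes.

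The secreted inhibitors held the largest changes among these genes. Sfrp2 encodes a secreted Frizzled-related protein that binds Wnt ligands and is known as a product of activated fibroblasts (ENSMUSG00000027996, chromosome 3, 83766321 to 83774316, mm10). Its scaled FPKM was 0.506, 2.03 and 1.89 in the Sham libraries and 109.6, 83.3 and 95.2 in the Model libraries. Every Model library was far above every Sham library. The means were 1.48 ± 0.845 and 96.0 ± 13.2 (SD, n = 3 each), a log2 change of 5.35 (SE 0.64, 40.8-fold, limma adjusted p = 0.000417).

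Sfrp1, another Frizzled-related protein (ENSMUSG00000031548, chromosome 8, 23411502 to 23449632), had 5.58, 6.20 and 6.85 scaled FPKM in Sham and 71.7, 54.8 and 67.4 in Model libraries. The groups did not overlap, and the change was 9.07-fold (log2 3.18, SE 0.43, limma adjusted p = 0.000769). Frzb, which encodes the Frizzled-related protein first described in cartilage (ENSMUSG00000027004, chromosome 2, 80411970 to 80447625), had 5.08, 6.47 and 7.80 in Sham and 70.9, 38.3 and 70.3 in Model libraries. It rose 7.96-fold (log2 2.99, SE 0.56, limma adjusted p = 0.00316), with Model library 2 the lowest of its group.

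Dkk3 encodes a divergent Dickkopf protein whose action on Wnt signalling differs between cell types (ENSMUSG00000030772, chromosome 7, 112116017 to 112159057). It had 3.36, 1.97 and 1.59 scaled FPKM in Sham and 71.3, 51.8 and 69.2 in Model libraries. It rose 20.0-fold (log2 4.32, SE 0.63, limma adjusted p = 0.00103), again without overlap. The classical Dickkopf genes were at or near 0: Dkk1 had 6 reads and Dkk2 128 reads over all 12 libraries, and Dkk4 had 0 reads in each.

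Sfrp4 did not pass the test. Its values were 0.0745, 0.0533 and 0.131 scaled FPKM in Sham and 1.14, 3.84 and 0.252 in Model libraries, a log2 difference of 1.11 (limma adjusted p = 0.0813). Wif1, which encodes a secreted factor that binds Wnt ligands directly, had 2.77 ± 0.967 in Sham and 2.55 ± 1.03 in Model hearts (SD, n = 3 each; limma adjusted p = 0.858). Sfrp5 was below the filter and lower in Model, with 35 reads over the Sham libraries and 4 over the Model libraries.

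**Figure D1:**
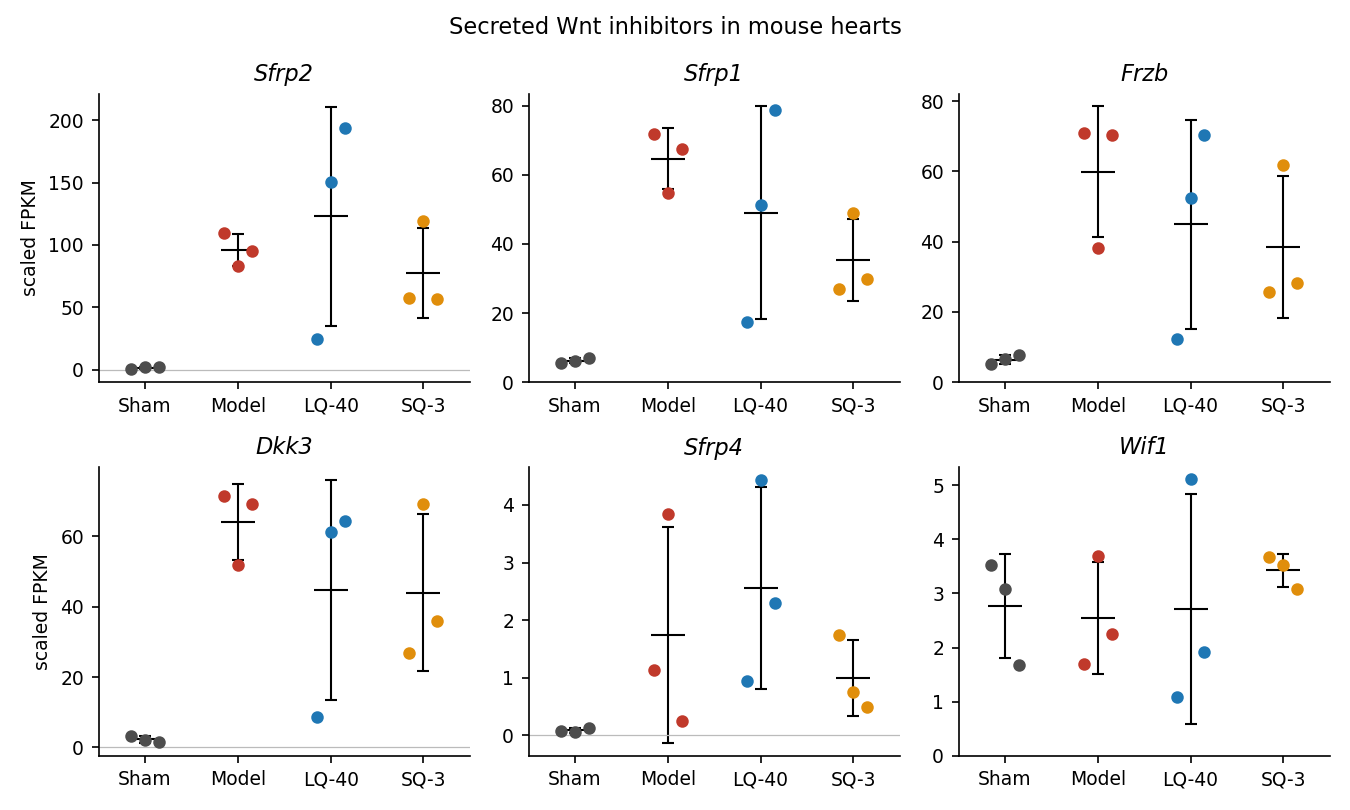
Scaled FPKM of 6 secreted inhibitors in the 12 mouse heart libraries, with 1 panel per gene and its own vertical axis. Points are libraries, horizontal bars are group means and whiskers are SD (n = 3). Sfrp2, Sfrp1, Frzb and Dkk3 are higher in all Model than in all Sham libraries, LQ-40 library 1 (leftmost blue point) is the lowest of its group in these 4 genes, and Wif1 overlaps in all groups.

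The makeup of the Frizzled-related family differed as well. Its summed level over 5 genes was 11.6 to 17.0 scaled FPKM in Sham and 180 to 253 in Model libraries. Sfrp2 held 4.38 to 13.2% of that sum in Sham and 40.8 to 46.2% in Model libraries, while Sfrp1 held 40.1 to 48.2% and 28.3 to 30.4%. Sfrp2 thus ranked below Sfrp1 and Frzb in every Sham library and above both in every Model library. The summed level of the 19 Wnt ligands was 7.54 to 9.11 in Sham and 12.5 to 18.3 in Model libraries. The ratio of the Frizzled-related sum to the ligand sum was 1.27 to 2.26 in Sham and 9.85 to 18.6 in Model libraries, without overlap. These are ratios of transcripts per length and were not tested.

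Markers of cartilage and tendon cells followed the same groups as Sfrp2, Frzb and Dkk3. The 5 tested markers of that list were called higher in Model hearts, as were 20.9% of all tested genes. Of these, Tnmd (0 in all 3 Sham libraries) and Chad (0.133 to 0.185 scaled FPKM) were below 1 FPKM in every Sham library and passed the filter through the other groups alone, so their direction is no independent evidence. The summed level of its 7 genes was 3.49 to 4.68 scaled FPKM in Sham, 127 to 270 in Model, 11.6 to 238 in LQ-40 and 94.7 to 313 in SQ-3 libraries. The lowest value of the LQ-40 range was library 1, which was also lowest of its group in Sfrp2, Sfrp1, Frzb and Dkk3. In the Model, LQ-40 and SQ-3 libraries most of the 7-gene sum was 1 gene, Comp. It had 0.814 to 1.10 scaled FPKM in Sham, 100 to 231 in Model, 8.09 to 203 in LQ-40 and 78.0 to 267 in SQ-3 libraries. Scx in LQ-40 library 1 (1.77) lay within the Sham range (1.63 to 2.58), and Acan and Col2a1 were below the filter. The part of this marker list in the result was not tested.

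Among the Wnt ligands, 5 of 19 were tested and 2 rose. Wnt9a (ENSMUSG00000000126, chromosome 11, 59306928 to 59333552) had 1.94, 1.72 and 1.58 scaled FPKM in Sham and 4.50, 4.98 and 3.80 in Model libraries. The groups were well apart, and the change was 1.97-fold (log2 0.98, SE 0.12, limma adjusted p = 0.000417). Wnt11, a ligand of the polarity and calcium branches known from heart development (ENSMUSG00000015957, chromosome 7, 98835112 to 98855195), had 1.58, 1.63 and 1.27 in Sham and 2.21, 2.67 and 2.32 in Model libraries. It rose 1.36-fold (log2 0.45, SE 0.12, limma adjusted p = 0.0164), a call that was lost without Sham library 3 (adjusted p = 0.0532) and without Model library 2 (0.0585).

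Wnt4, Wnt5a and Wnt5b did not pass. Wnt4 had 0.167, 0.0885 and 0.0748 scaled FPKM in Sham and 0.693, 3.13 and 0.419 in Model libraries, with library 2 far above the other Model libraries (limma adjusted p = 0.0598). Wnt5a, the best known ligand of the non-canonical branches, was 2.12 ± 0.601 in Sham and 2.37 ± 0.634 in Model hearts (SD, n = 3 each; limma adjusted p = 0.671). Wnt5b overlaps Fbxl14 on the other strand, and the sources used here do not say whether counting used strand, so its reads are uncertain.

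In Sham hearts no ligand dominated the sum: Wnt9a took 20.4 to 21.3%, Wnt5a 21.4 to 33.0%, Wnt5b 14.9 to 27.4% and Wnt11 16.8 to 19.4%. In Model hearts Wnt9a took 27.2 to 31.1% of the ligand sum. The other 14 ligands were below the filter. Wnt8a, Wnt7b, Wnt3, Wnt8b and Wnt3a had between 1 and 5 reads over all 12 libraries, while Wnt2b had 375, Wnt9b 269 and Wnt2 238. Several ligand genes sit side by side in the genome, and neighbours could be at very different levels: Wnt9a peaked at 4.98 scaled FPKM, and Wnt3a, 16.2 kb away on chromosome 11, at 0.0913.

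Rspo1 was the tested R-spondin (ENSMUSG00000028871, chromosome 4, 124986430 to 125009099). Its scaled FPKM was 1.77, 0.115 and 0.769 in Sham and 5.76, 14.5 and 2.54 in Model libraries. The libraries spread widely within both groups but did not overlap. It rose 4.08-fold (log2 2.03, SE 0.54, limma adjusted p = 0.0139), and without Sham library 2 the call was lost (adjusted p = 0.0541).

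Rspo1, Wnt4 and Sfrp4 were all highest in library 2 of the Model group. The sum of epicardial and mesothelial markers, which mark the outer lining of the heart, was highest there too. Over 7 genes it was 51.7, 99.0 and 20.7 scaled FPKM in Model libraries 1 to 3 and 19.2, 6.79 and 5.44 in Sham libraries 1 to 3. Tbx18 was an exception, with its lowest Model value in library 2 (3.73, 3.38 and 3.65 in Model libraries 1 to 3). Msln was nearly level in libraries 1 and 2 (19.6 and 20.2). Of these 7 markers 5 rose in Model hearts (20.9% of all tested genes did), among them Upk1b, which was below 1 FPKM in every Sham library and passed the filter through the other groups alone. Other lists peaked in Model library 2 as well. Adipocyte markers were highest there, with Adipoq at 0.0421, 3.29 and 0.424 scaled FPKM in Model libraries 1 to 3. So were the skeletal muscle markers apart from Acta1, with Mylpf at 0.547, 7.75 and 0.221. The amount of this lining or of other tissue in each heart piece was not tested as a part of these differences. Rspo2 and Rspo3 had 21 and 63 reads in all, and Rspo4 had 0 reads in each library.

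Of the Frizzled receptors 8 of 10 were tested, 4 rose and 4 did not pass. Fzd1 (ENSMUSG00000044674, chromosome 5, 4753839 to 4758035) had 3.28, 4.37 and 4.91 scaled FPKM in Sham and 20.1, 17.3 and 15.7 in Model libraries, which is a rise of 1.86 on the log2 scale (SE 0.36, 3.62-fold, limma adjusted p = 0.00363). Fzd2 (ENSMUSG00000050288, chromosome 11, 102604396 to 102608058) had 1.32, 2.29 and 2.89 in Sham and 9.28, 8.40 and 7.55 in Model libraries, which is a rise of 1.60 (SE 0.24, 3.03-fold, limma adjusted p = 0.00116). Fzd7 (ENSMUSG00000041075, chromosome 1, 59482424 to 59486955), which is closely related in sequence to Fzd1 and Fzd2, had 2.51, 3.20 and 3.04 in Sham and 7.67, 6.48 and 7.41 in Model libraries, which is a rise of 1.06 (SE 0.15, 2.09-fold, limma adjusted p = 0.000993). For all 3 receptors every Model library lay above every Sham library.

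Fzd8 had 3.70, 3.20 and 3.73 scaled FPKM in Sham and 5.19, 3.82 and 4.64 in Model libraries. The Sham values lay just below the lowest Model value, and the 1.22-fold change (log2 0.28, SE 0.10, limma adjusted p = 0.0436) was lost in 11 of 13 alternative analyses. Fzd4, which carries vascular signalling and was the most abundant Frizzled transcript in Sham hearts, had 24.8 ± 4.17 in Sham and 21.7 ± 3.31 in Model hearts (SD, n = 3 each; limma adjusted p = 0.386). Fzd6 had 8.17 ± 0.964 in Sham and 7.13 ± 0.360 in Model hearts (limma adjusted p = 0.168). Fzd5 and Fzd9 were near 1 scaled FPKM and did not pass.

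The order of the receptors differed between groups. Fzd4 held 44.7 to 58.8% of all Frizzled transcript in Sham and 25.6 to 35.3% in Model libraries, and Fzd1 held 6.78 to 10.8% and 22.5 to 28.4%. The summed Frizzled level was 45.4 to 49.9 scaled FPKM in Sham and 68.0 to 70.9 in Model libraries.

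**Figure D2:**
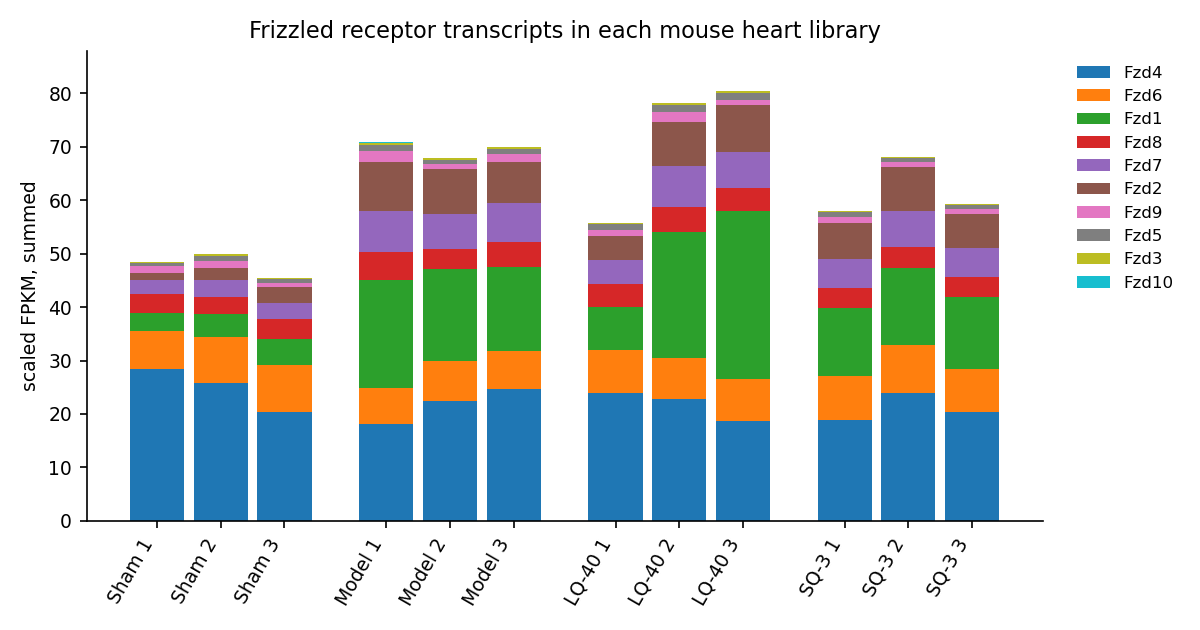
Stacked bars of the scaled FPKM of the 10 Frizzled receptors, with 1 bar per mouse heart library. The Fzd4 segment is the largest in every Sham library, and the Fzd1 segment is larger in every Model library than in any Sham library. In Model library 1 and in LQ-40 libraries 2 and 3 Fzd1 is the largest segment.

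Lrp5 and Lrp6 encode the co-receptors of the canonical branch. Lrp5 (ENSMUSG00000024913, chromosome 19, 3584828 to 3686564) had 9.24, 10.8 and 10.6 scaled FPKM in Sham and 22.9, 15.9 and 22.6 in Model libraries. It rose 1.89-fold without overlap (log2 0.92, SE 0.15, limma adjusted p = 0.00156). Lrp6 had 7.43 ± 0.988 in Sham and 8.89 ± 0.154 in Model hearts (SD, n = 3 each) and did not pass (log2 0.24, limma adjusted p = 0.0678). The difference between both changes was not tested.

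**Figure D3:**
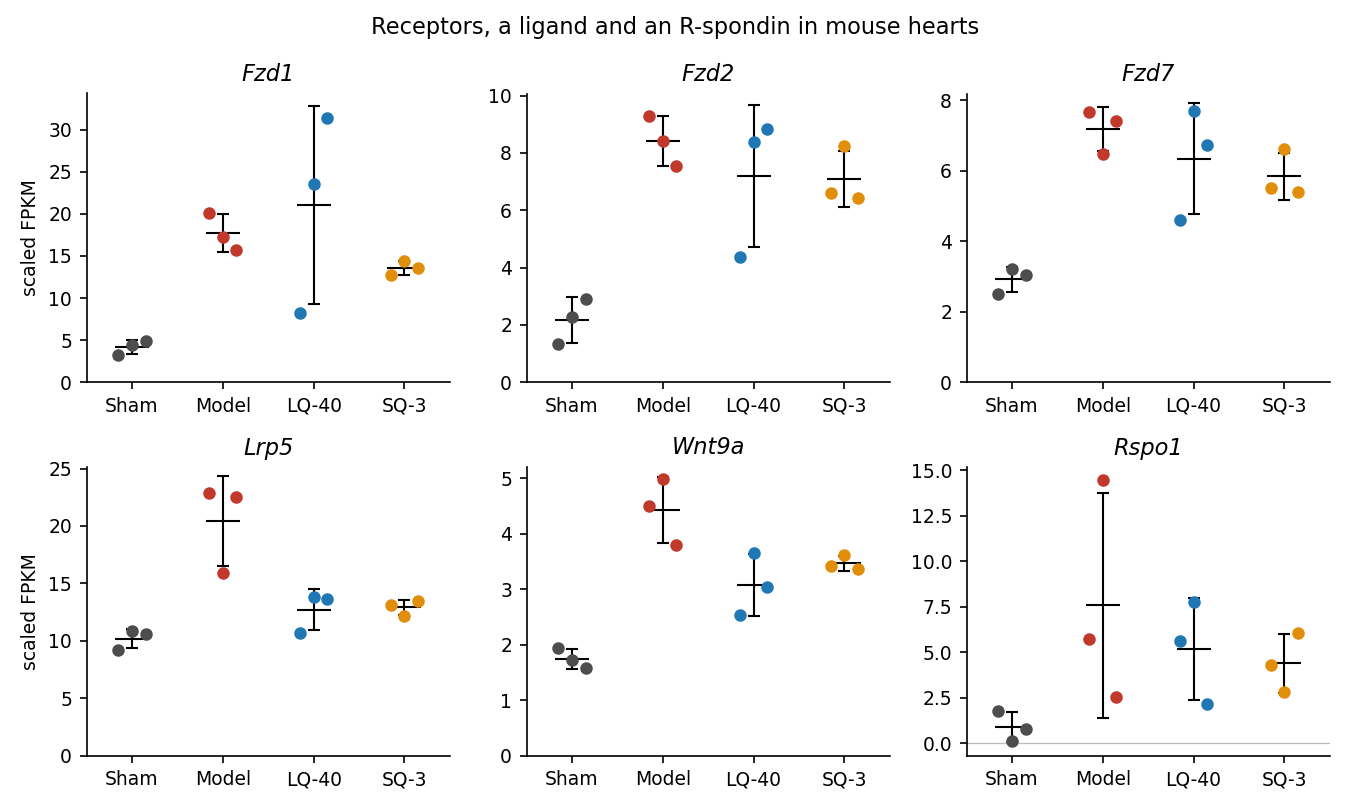
Scaled FPKM of 4 receptor genes, the ligand Wnt9a and the R-spondin Rspo1 in the 12 mouse heart libraries, with 1 panel per gene and its own vertical axis. Points are libraries, horizontal bars are group means and whiskers are SD (n = 3). In all 6 panels the Model libraries lie above the Sham libraries, and in the Lrp5 and Wnt9a panels the LQ-40 and SQ-3 libraries lie below the Model libraries.

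Inside the cell, 2 of 4 tested genes rose. Ctnnb1, which encodes beta-catenin, a protein of cell junctions as well as of this pathway, had 77.9, 91.6 and 88.9 scaled FPKM in Sham and 111, 101 and 111 in Model libraries. The 1.25-fold change was small (log2 0.32, SE 0.11, limma adjusted p = 0.0400) and was lost in 10 of 14 alternatives. Tcf7l1, a TCF factor known mainly as a repressor, had 3.00, 3.80 and 5.04 in Sham and 5.70, 7.16 and 6.93 in Model libraries, which is a rise of 0.63 on the log2 scale (SE 0.19, 1.55-fold, limma adjusted p = 0.0233) that was lost in 5 of 14 alternatives, 4 of which left out 1 library. Axin2, a feedback inhibitor widely used as a readout of beta-catenin activity, had 0.495, 0.728 and 0.940 in Sham and 0.845, 1.31 and 0.564 in Model libraries. These values overlapped and did not pass (log2 0.14, 95% interval -0.28 to 0.56, limma adjusted p = 0.593). Tcf7l2 did not pass either (limma adjusted p = 0.674). Tcf7 and Lef1 were below the filter, with 31 and 1 reads over the Sham libraries and 116 and 19 over the Model libraries.

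With no filter on low values, 3 of the genes below the main filter passed in Model against Sham. They were Sfrp5, lower in Model (log2 -0.48, limma adjusted p = 0.0152), and Wnt2 and Fzd3, both higher (adjusted p = 0.0452 and 0.0496). In the main fit 38.9% of all tested genes passed. The share of all genes that passed without the filter is not given here, so this count has no background of its own. Wnt2 had 22 reads over the Sham and 94 over the Model libraries, and Fzd3 had 83 and 211. Sfrp5 was at 0.328, 0.703 and 0.371 scaled FPKM in Sham and 0.0306, 0.106 and 0 in Model libraries, the opposite direction to Sfrp1, Sfrp2 and Frzb.

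Other genes of the pathway were taken from 6 lists. Of the 17 tested co-receptors and surface regulators, 11 rose and 1 fell in Model hearts (median log2 0.71 against 0.03 over all tested genes, background 38.9%). The smallest p-values were those of Adgra2, a co-activator for Wnt7 ligands (5.35 ± 1.01 scaled FPKM in Sham, 14.2 ± 1.06 in Model, SD, n = 3 each; limma adjusted p = 0.000973), Ror2, a receptor for Wnt5a (0.803 ± 0.320 and 2.61 ± 0.255, adjusted p = 0.00176), and Sost, an inhibitor that binds Lrp5 and Lrp6 (0.0994 ± 0.0790 and 2.45 ± 0.200, adjusted p = 0.00249). Sost was below 1 FPKM in every Sham library and passed the filter through the other groups alone. The single member that fell was Lgr6, a receptor of R-spondins, named after its values were seen (1.19 ± 0.0606 and 0.446 ± 0.0858, adjusted p = 0.00907). It was below 1 FPKM in every Model library and reached the filter through the groups where it was higher.

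Of 18 tested genes that beta-catenin often induces in other cells, 13 rose and 1 fell (median log2 1.01 against 0.03 over all tested genes, of which 20.9% were called higher and 18% lower). Nkd1, Nkd2 and Wisp1, counted among the 13, were below 1 FPKM in every Sham library and passed the filter through the other groups alone. Wisp2, a matricellular protein gene, had 4.15 ± 0.337 scaled FPKM in Sham and 98.7 ± 39.6 in Model hearts (limma adjusted p = 0.00106), Dact3, an antagonist of Dishevelled, 7.63 ± 1.31 and 24.5 ± 4.17 (adjusted p = 0.00117), and Twist1, a transcription factor of mesenchymal cells, 1.63 ± 0.289 and 7.29 ± 0.817 (adjusted p = 0.00127). Vcan, Cd44 and Twist1 of this list are also known as genes of fibroblasts. Tnfrsf19, named after its values were seen, fell (1.15 ± 0.512 and 0.321 ± 0.0662, adjusted p = 0.0242) and was below 1 FPKM in every Model library.

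The counts for the inner machinery stand beside the same background of 38.9% called over all tested genes. Of 16 tested genes of Dishevelled and the beta-catenin destruction complex, 2 rose (Csnk1d and Apc, limma adjusted p = 0.0289 and 0.0432) and 0 fell, with a median log2 change of 0.07. Of 15 nuclear co-factors, 3 rose and 2 fell (median 0.09). The smallest p-values were those of Tle3, a co-repressor (1.98 ± 0.241 and 4.33 ± 0.502 scaled FPKM, adjusted p = 0.00148), and Ctbp2 (adjusted p = 0.00386), both higher, and of Bcl9, a beta-catenin co-activator, which fell (3.54 ± 0.157 and 2.25 ± 0.196, adjusted p = 0.00562). Pygo2 (higher) and Tle4 (lower) were named after their values were seen. Of 17 genes of the polarity and calcium branch, 5 rose and 0 fell (median 0.02), led by Nfatc4 (adjusted p = 0.00122), Daam2 (0.00130) and Nfatc1 (0.00308). Of 2 tested genes of ligand secretion, Wls, the carrier that brings Wnt proteins to the surface, rose from 8.20 ± 1.37 to 15.02 ± 1.11 (adjusted p = 0.0138).

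The comparisons of LQ-40 and of SQ-3 with Model hearts share the 3 Model libraries. Whether the compound-treated hearts received the model procedure is not stated, so compound and procedure cannot be told apart in these differences. In LQ-40 against Model 0 of the 26 Wnt genes passed the limma test, where 0.669% of all tested genes did, and 2 had an unadjusted p under 0.05, as did 12.1% of all tested genes. In SQ-3 against Model 0 of 26 passed, where 0.346% of all tested genes did, and again 2 had an unadjusted p under 0.05, as did 14.2% of all tested genes. Libraries did not overlap in 5 of 26 genes for LQ-40 (18.1% of all tested genes) and in 6 of 26 for SQ-3 (26.4%). The median log2 difference from Model was -0.07 for LQ-40 and -0.21 for SQ-3, against 0.01 and -0.01 over all tested genes. None of the further pathway genes in the 6 lists passed in either comparison. Limma-voom on the recovered reads also called 0 of the 26 genes in LQ-40 against Model, in SQ-3 against Model and between both compounds.

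Lrp5 had the smallest p-value in both. Its scaled FPKM was 10.7, 13.8 and 13.6 in LQ-40 and 13.1, 12.2 and 13.5 in SQ-3 libraries, against 22.9, 15.9 and 22.6 in Model. All 6 libraries lay below the lowest Model value and 5 of the 6 lay above the highest Sham value. The log2 difference from Model was -0.64 for LQ-40 (95% interval -0.96 to -0.31, limma adjusted p = 0.0893) and -0.60 for SQ-3 (-0.93 to -0.28, adjusted p = 0.146). Without Model library 2, Lrp5 passed for LQ-40 (log2 -0.80, adjusted p = 0.0289) and not for SQ-3 (-0.77, adjusted p = 0.0661).

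Wnt9a came next, with 2.53, 3.65 and 3.04 scaled FPKM in LQ-40 and 3.41, 3.62 and 3.36 in SQ-3 libraries against 3.80 to 4.98 in Model. The log2 difference was -0.42 for LQ-40 (95% interval -0.68 to -0.16, limma adjusted p = 0.161) and -0.28 for SQ-3 (-0.54 to -0.02, adjusted p = 0.329). After these came Wnt11 for LQ-40, with 1.42, 2.04 and 2.19 scaled FPKM (log2 -0.24, limma adjusted p = 0.475). For SQ-3 the gene after Wnt9a was Fzd6, with 8.09, 8.90 and 7.95 scaled FPKM against 6.78, 7.50 and 7.12 in Model (log2 0.19, limma adjusted p = 0.366).

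The secreted inhibitors spread widely under both compounds. Sfrp2 had 24.6, 151 and 194 scaled FPKM in LQ-40 libraries and 57.5, 119 and 56.4 in SQ-3 libraries, against 83.3 to 109.6 in Model. The LQ-40 values fell on both sides of the Model range, and the 95% interval of the log2 difference from Model was -1.49 to 1.33 for LQ-40 and -1.79 to 1.03 for SQ-3. Dkk3 had 8.62, 61.2 and 64.3 in LQ-40 and 26.9, 69.2 and 35.96 in SQ-3 libraries. Frzb had 12.2, 52.5 and 70.2 in LQ-40 and 25.5, 61.7 and 28.3 in SQ-3 libraries.

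In these 3 genes LQ-40 library 1 was lowest and SQ-3 library 2 highest of its group. Without LQ-40 library 1 the log2 difference of LQ-40 from Model moved from -0.93 to -0.02 in Dkk3, from -0.67 to 0.07 in Frzb and from -0.08 to 0.83 in Sfrp2 (adjusted p = 0.542 in Sfrp2). Sfrp1 had 17.4, 51.1 and 78.7 in LQ-40 and 27.0, 48.9 and 30.0 in SQ-3 libraries, against 54.8 to 71.7 in Model, so the SQ-3 libraries lay below the Model range (log2 -0.89, 95% interval -1.84 to 0.05, limma adjusted p = 0.369). Fibroblast markers summed to 1118 scaled FPKM in LQ-40 library 1 and to 2491 and 4036 in the other LQ-40 libraries, and their part in this spread was not tested.

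**Figure D4:**
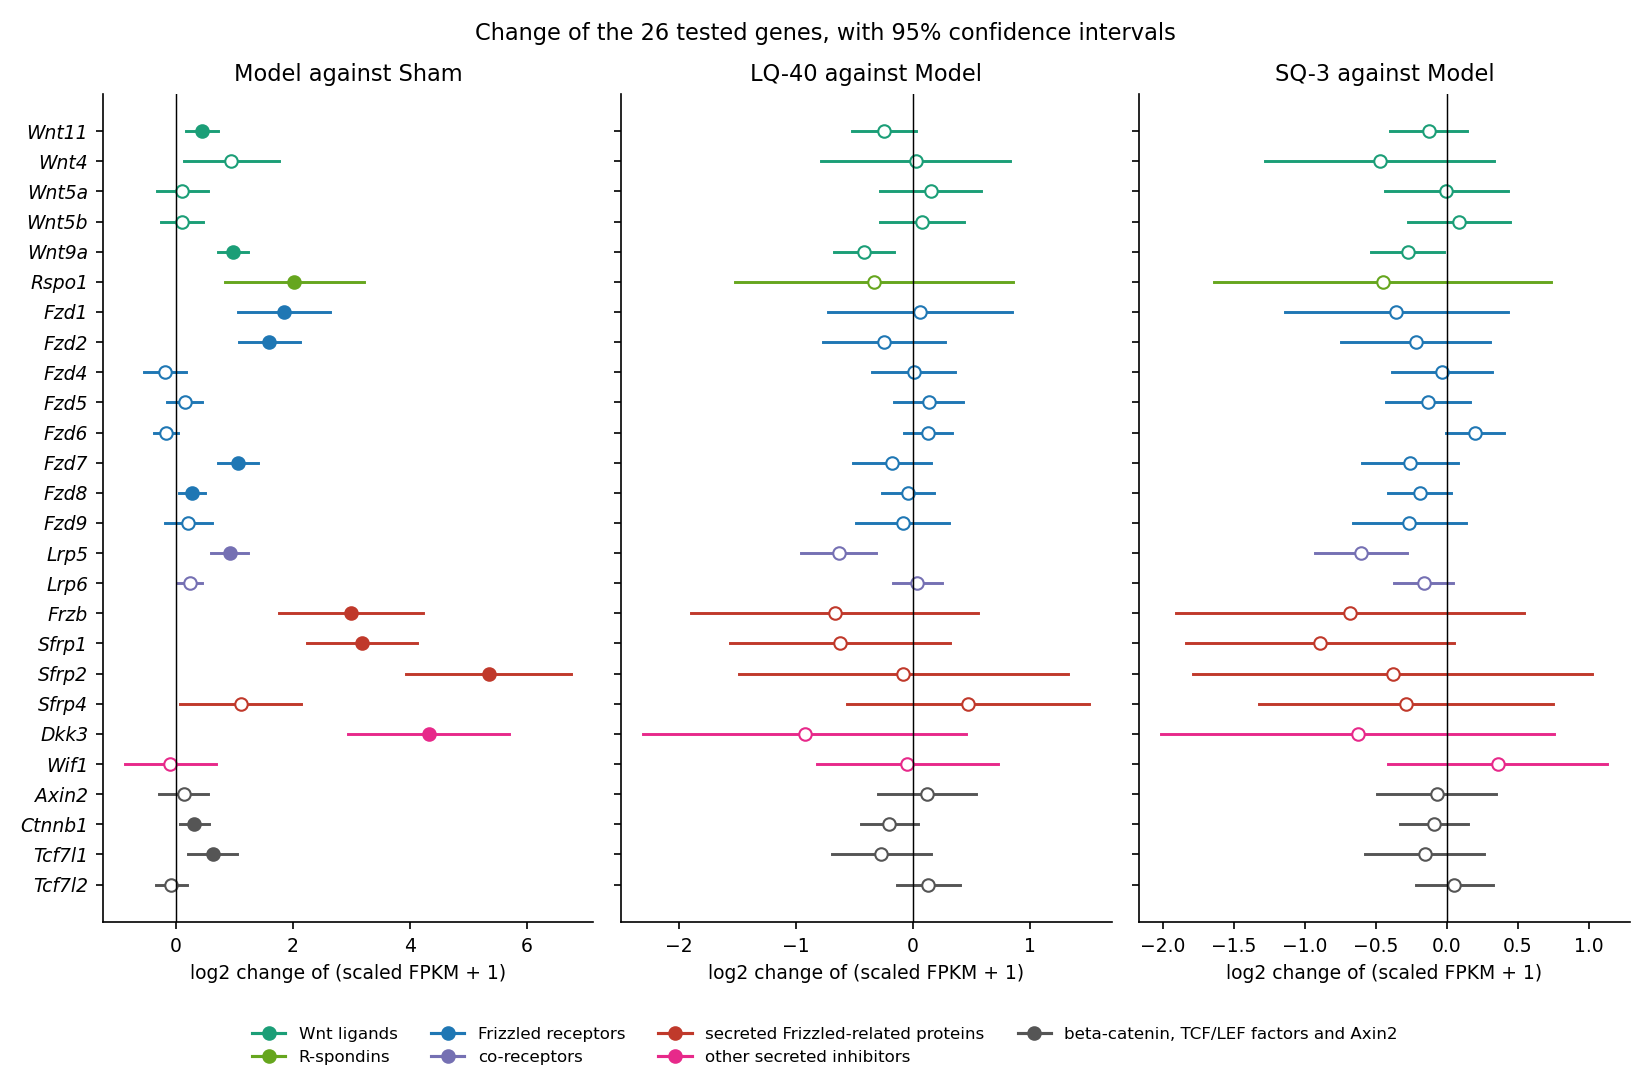
Log2 changes of the 26 tested genes with 95% confidence intervals from limma, for Model against Sham (left), LQ-40 against Model (middle) and SQ-3 against Model (right), each panel with its own horizontal axis. Filled points passed an adjusted p of 0.05 and open points did not, and colours mark the roles. The left panel holds 14 filled points, all to the right of 0, and the middle and right panels hold none.

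LQ-40 and SQ-3 were compared directly with each other over 26 genes, and 0 passed the limma test. Over all tested genes 0% passed, and 3.03% (394 genes) had an unadjusted p under 0.05, none of them among the 26. The smallest unadjusted p-values were those of Lrp6, with 8.52, 9.80 and 9.22 scaled FPKM in LQ-40 and 8.01, 7.66 and 7.80 in SQ-3 libraries (log2 0.21, 95% interval -0.004 to 0.41), of Fzd5 (0.27, interval -0.02 to 0.57) and of Sfrp4 (0.76, interval -0.27 to 1.80). The libraries did not overlap in 4 of 26 genes (Lrp6, Fzd5, Fzd8 and Ctnnb1), against 6.12% of all tested genes. The interval for Lrp5 was -0.35 to 0.29, and that for Wnt9a was -0.40 to 0.12. For Sfrp2 it was -1.11 to 1.71 and for Dkk3 -1.68 to 1.09, so that differences of more than 2-fold between both compounds lie within what these libraries allow for the inhibitors.

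Against Sham hearts, which both compound groups and Model share as control, 9 of 26 genes passed in LQ-40 (background 15.8%, with 9.83% higher) and 8 of 26 in SQ-3 (background 6.68%, with 4.86% higher), all of them higher than Sham. The genes were Sfrp2, Sfrp1, Frzb, Dkk3, Fzd1, Fzd2, Fzd7 and Wnt9a in both, with Sfrp4, below 1 FPKM in every Sham library, in addition for LQ-40 (log2 1.59, limma adjusted p = 0.0447, with 0.942, 4.43 and 2.31 scaled FPKM in LQ-40 libraries). For Sfrp2 the log2 difference from Sham was 5.35 (Model), 5.27 (LQ-40) and 4.97 (SQ-3). Lrp5 had 0.92, 0.29 and 0.32, and passed in Model alone (adjusted p = 0.185 for LQ-40 and 0.186 for SQ-3). When LQ-40 and Sham libraries were fitted without the other groups, 1 of the 9 calls was left (Sfrp2), and each of the other 8 was lost in at least 1 alternative. Of the 8 calls in SQ-3, those of Sfrp1, Frzb, Fzd1 and Fzd7 were lost in at least 1 alternative, and leaving out 1 library gave 4 to 6 calls.

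The rat cultures were compared as 1 library each, so their differences have no replicate check. The label names cardiomyocytes, but cardiomyocyte markers were low in both libraries, with a summed level of 9.85 scaled FPKM in 2D and 10.6 in 3D over 7 genes. Most of this sum was Tnnt2 (6.53 in 2D and 6.81 in 3D), and Myl2 was at 0. Fibroblast markers summed to 2750 and 3028, and macrophage markers to 44.1 and 45.3. The 2D library held 13262387 and the 3D library 11910160 reads.

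Of the 50 rat genes 22 reached at least 1 FPKM in either library. At least a 2-fold difference on the log2(scaled FPKM + 1) scale was seen in 2 of them, both higher in 3D, against 7.47% of all 13405 compared genes (5.03% higher, 2.44% lower). The median log2 ratio of 3D over 2D was -0.31 for the 22 genes and 0.00 for all compared genes. Wnt5a had 0.296 scaled FPKM (20 reads) in 2D and 2.39 (139 reads) in 3D, a ratio of reads adjusted for depth of 8.07 (exact 95% binomial interval 5.03 to 13.6). Sfrp2 had 2.40 (76 reads) and 6.92 (189 reads), a ratio of 2.89 (2.20 to 3.82). These intervals cover counting error alone, since reads without molecular identifiers are not independent molecules. Sfrp2 also had the largest change of the 26 tested Wnt genes in mouse Model hearts, but Sfrp1 and Frzb were near 0 in the rat cells, with 5 and 6 reads and 1 and 2 reads in 2D and 3D.

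Most receptors were lower in 3D. Fzd2, the highest Frizzled transcript there by scaled FPKM, had 37.6 in 2D and 19.6 in 3D (read ratio 0.521, 0.464 to 0.584), and Fzd7 had 21.8 and 13.1 (0.602, 0.534 to 0.676). The rank of Fzd2 depends on the gene lengths in the rat table. Fzd2 (1911 bases) had 972 and 436 reads in 2D and 3D, and Fzd1 (4399 bases) had 832 and 742. Fzd1 had 14.0 and 14.5 (1.04, 0.937 to 1.14). Over the 9 Frizzled genes the sum was 90.04 in 2D and 59.4 in 3D. Fzd4, first among the Frizzled receptors in Sham mouse hearts, had 4.16 and 2.54 in the rat cells.

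Of the ligands, Wnt9a had 8.61 and 4.79 scaled FPKM in 2D and 3D, and Wnt6 had 3.41 and 1.71. Their order depends on gene length too: Wnt9a (609 bases) had 71 and 34 reads, and Wnt6 (2057 bases) had 95 and 41. Rspo1 was again the one R-spondin above 1 FPKM, with 18.3 and 13.1. Tcf7l2 had 12.3 and 5.90 (read ratio 0.479, 0.410 to 0.558), Ctnnb1 158 and 173, and Lrp5 9.79 and 9.12. Axin2 was below 1 FPKM with 38 and 15 reads. Dkk4, which had 0 reads in the mouse hearts, had 8.22 and 7.19 scaled FPKM in the rat cells, and Dkk3 had 3.74 and 2.46.

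**Figure D5:**
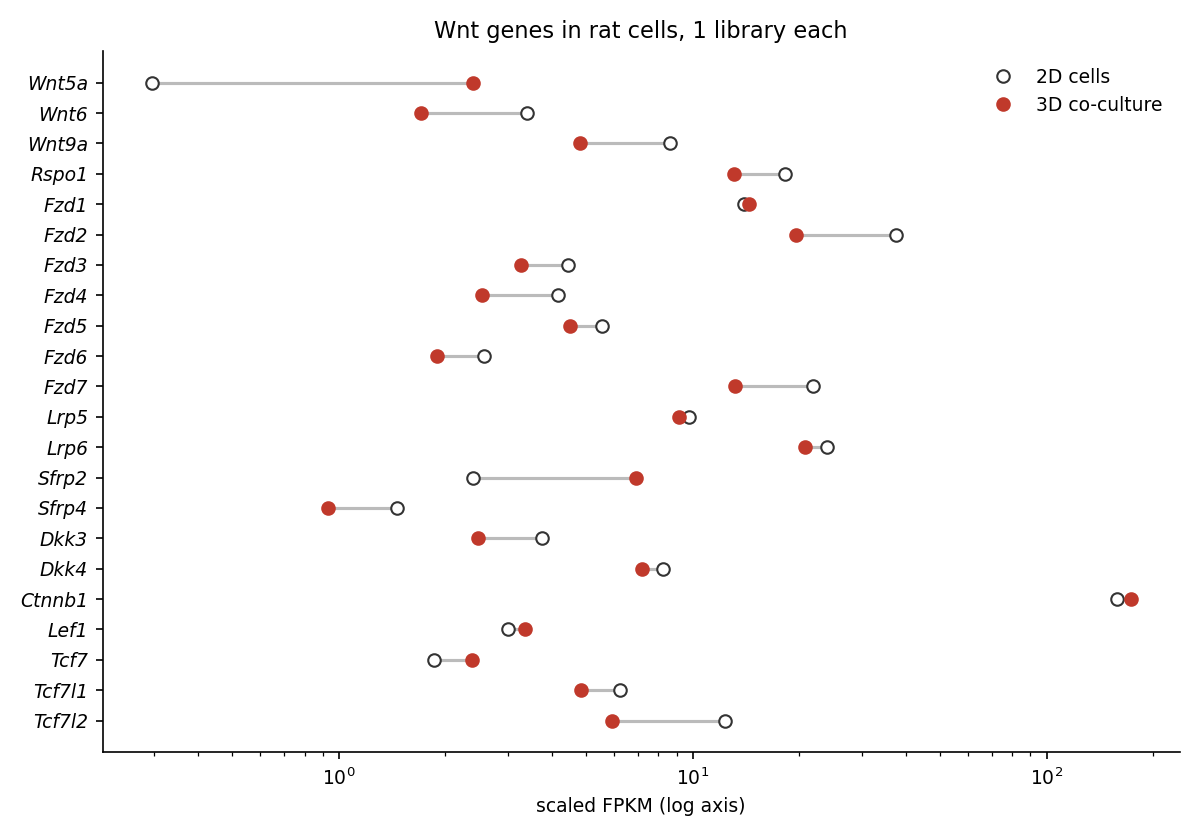
Scaled FPKM (log axis) of the 22 Wnt genes with at least 1 FPKM in either rat library, ordered by role. Open points are the 2D cells and filled points the 3D co-culture, with 1 library each and a line joining both values of a gene. Wnt5a and Sfrp2 lie to the right in 3D, and Fzd2, Fzd7, Wnt9a, Wnt6 and Tcf7l2 lie to the left.

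Of the further pathway genes in the rat, Gpc3, a surface proteoglycan, was at least 2-fold higher in 3D (2.12 and 5.71 scaled FPKM; 1 of 13 co-receptors and surface regulators). At least 2-fold lower were Tnks2 (3.97 and 0.588; 1 of 14 in its list), Ccn5 (5.48 and 1.28) and Dact1 (7.78 and 2.87; 2 of 17 in their list). The other lists held 0. Over all compared genes 5.03% were higher and 2.44% lower. Ccn5 is another symbol of Wisp2, which was higher in mouse Model than Sham hearts (98.7 and 4.15), the opposite direction.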

How the data were processed

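Messenger RNA was sequenced from 12 mouse heart libraries (4 groups of 3, from the sample titles) and 2 rat libraries. Per the submitters' processing notes, the tools were featureCounts 1.5.0-p3, HISAT2 2.0.5 and fastp, in no stated role or order, with mm10 taken here as the mouse build and Rnor_6.0 as the rat build. The sources used here do not give the gene annotation or whether counting used strand. The authors deposited FPKM values with gene lengths and coordinates. FPKM times gene length was a whole number of reads for 100.0% of values (tolerance 0.02 of a read), which gave the depths.

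Scaled FPKM are mouse FPKM corrected by median-of-ratios factors from 10422 genes. The fit used limma 3.58.1 (R 4.3.3) on log2(scaled FPKM + 1) of the 13000 genes that reached 1 FPKM in 3 or more libraries (eBayes with trend, all 12 libraries in one fit, two-sided, Benjamini-Hochberg over all 13000, threshold 0.05). The pseudocount of 1 understates the fold of low genes, so a fold differs from the ratio of printed means. The script was tested on simulated data. Rat values were put on one scale through the median ratio and are given without a test, with read ratios and exact binomial intervals. Promoter windows came from RefSeq (GRCm38.p6). Of the mouse gene IDs shared with GENCODE M21, 98.33% had the same coordinates.

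The genes, pathway lists and marker lists were chosen with earlier results of these data known. Named were all genes that passed in a comparison, the 3 smallest p-values where none passed, up to 3 per pathway list, and rat genes past 2-fold. Replicate numbers did not pair the libraries: 3 of 18 correlations between same-numbered libraries were over 0.1. Alternatives were the deposited FPKM, quantile normalization, no filter, a filter on the mean (5 FPKM), a smaller pseudocount (0.1), a replicate block, limma-voom on recovered reads, only the groups compared, and leaving out each library.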

Additional observations from a re-analysis of the deposited data

How the results depend on the processing

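Of the 14 calls in Model against Sham, 9 (Dkk3, Frzb, Fzd1, Fzd2, Fzd7, Lrp5, Sfrp1, Sfrp2 and Wnt9a) held under every alternative that tested them, as did 1 of 9 in LQ-40 against Sham and 4 of 8 in SQ-3 against Sham. The count in Model against Sham was 10 with a mean of at least 5 FPKM and 16 with a pseudocount of 0.1, and 11 to 13 without 1 library. LQ-40 against Model gave 0 to 1 without 1 library (1 without Model replicate 2), LQ-40 against Sham 6 to 12, and SQ-3 against Sham 4 to 6. With only the 2 groups compared, LQ-40 against Sham gave 1 call. The replicate block gave 12, 8 and 8 calls in Model, LQ-40 and SQ-3 against Sham and 0 elsewhere; as the numbers do not pair the libraries, this says nothing of weaker effects. The filter on the mean left Wnt9a, Wnt11, Rspo1 and Fzd8, called in the main fit, untested. The cause of the other shifts was not tested.

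Among genes that did not pass in Model against Sham, some turned direction close to 0. Quantile normalization gave log2 -0.017 for Axin2, -0.014 for Fzd5, -0.0044 for Wnt5a and -0.019 for Wnt5b. With 1 library left out the log2 change ran from -0.011 to 0.273 for Axin2, -0.186 to 0.014 for Tcf7l2, -0.320 to 0.087 for Wif1, -0.020 to 0.261 for Wnt5a and -0.059 to 0.225 for Wnt5b. In the rat, the log2 ratio of Wnt5a was 1.39, and 2.65 with a pseudocount of 0.1 and 3.01 from reads. The planned count model (edgeR) was not run. With 3 libraries a group, wide intervals such as those of Sfrp2 and Dkk3 limit the comparisons of the compounds.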
